A study of Mus musculus with 9 samples.

Results

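Integrins are the cell surface receptors with which cells hold on to the matrix around them. Each receptor is a pair of 1 alpha and 1 beta subunit, and the pair decides the ligand: alpha5 with beta1 and the alphav pairs read fibronectin and other proteins that carry the arginine-glycine-aspartate sequence, alpha3, alpha6 and alpha7 with beta1 read laminins, and alpha4, alpha9 and beta7 pairs read VCAM1, MAdCAM1, E-cadherin and tenascin, among others. Cytosolic talin and kindlin bind the beta tails, switch the receptors on and couple them to actin. The genes described here are 10 subunits of these receptors, Itga3, Itga4, Itga5, Itga6, Itga7, Itga9, Itgav, Itgb3, Itgb5 and Itgb7, chosen by symbol out of 54134 entries of a count table, and all 10 symbols were found. Of them, 8 passed the filter on low counts and were tested, while Itga4 and Itga9 were not detected beyond the counting floor.

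Transcripts were measured by poly(A) RNA sequencing in 3 groups of 3 libraries from cells labelled as the mouse hippocampal neuronal line HT22, genotype WT. The Hb+NTR1 group received oxyhemoglobin, the oxygen-carrying protein of red blood cells, together with the agent that the labels write as NTR1 and the series title as NGR1. The Hb group received oxyhemoglobin and the control group nothing. No group received NTR1 by itself, and the labels used here give neither dose nor duration. Whether the 3 libraries of each group are separate cultures is not stated, and every p-value here reflects only how far these samples spread, which may be technical.

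Total counts were 13945507 to 14280053 in Hb+NTR1, 13415648 to 14728662 in Hb and 14369813 to 16893746 in control libraries. Levels are normalised CPM, counts scaled to a common library size, and are written as mean ± SD with n = 3 throughout. Fold changes on the log2 scale carry their SE and come from edgeR's quasi-likelihood test, two-sided, called at a Benjamini-Hochberg adjusted p under 0.05 over 13810 genes. Hb replicate 2 stood furthest from its group: chi-square divided by its degrees of freedom was 12.97 and 10.7 when it was paired with Hb replicates 1 and 3, and 2.51 to 5.10 for all other pairs within a group. The neuronal label was not borne out by most of its markers: of 17, 12 lay under 1 CPM in Hb+NTR1, 11 in Hb and 11 in control, and Map2 had 0 counts in every library. The summed neuronal markers lay at 140.01 to 144.7 CPM in Hb+NTR1, 203.5 to 222 CPM in Hb and 209 to 216 CPM in control. Dlg4, Ncam1, Tubb3 and Syn1 led that sum in Hb, at 70.7, 63.5, 36.8 and 25.4 CPM. Fibroblast markers summed to 1475 to 1567 CPM in Hb+NTR1, 11489 to 12991 CPM in Hb and 14326 to 15241 CPM in control libraries, with Lum and Fap at or near 0 among the 12. The collagens Col1a2, Col1a1 and Col3a1 led that sum, at 7381, 2598 and 1771 CPM in Hb. Pdgfra had 65.0, 78.8 and 109 CPM in Hb+NTR1, Hb and control. Of 12 glial and microglial markers, 9 were under 1 CPM in each group and Aqp4 was at 0. Their sum, led by Slc1a3, was 13.02 to 15.0 CPM in Hb+NTR1, 129 to 155 CPM in Hb and 222 to 250 CPM in control. With NTR1 4 of 4 tested were lower against Hb and against control, beside 31.6% and 32.2% of all tested genes. Of these, Aldh1l1 passed the filter only through its Hb and control libraries and could only be called lower. The untested Gfap and Aif1 went the other way. Gfap had 38, 10 and 12 counts in all Hb+NTR1, Hb and control libraries, and Aif1 25, 7 and 4. In RNA from whole cultures, fewer cells of a type and less RNA per cell cannot be told apart.

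In oxyhemoglobin-treated cells, only 2 of the 8 tested subunits moved past the threshold, and in opposite directions: Itgb7 rose and Itgb5 fell. With NTR1 added, both lay on the other side of control, Itgb7 below it and Itgb5 above it. Itgav, Itga6, Itga3 and the sparse Itgb3 were also higher with NTR1, while Itga5 stayed near 145 CPM in all 3 groups. In Hb against control, 3.65% of all tested genes were called, 1.88% higher and 1.77% lower. In Hb+NTR1 against Hb, 62.3% were called, 30.7% higher and 31.6% lower. In Hb+NTR1 against control, 63.6% were called, 31.4% higher and 32.2% lower, so that a call in either NTR1 comparison was the rule among genes rather than the exception.

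**Figure D1:**
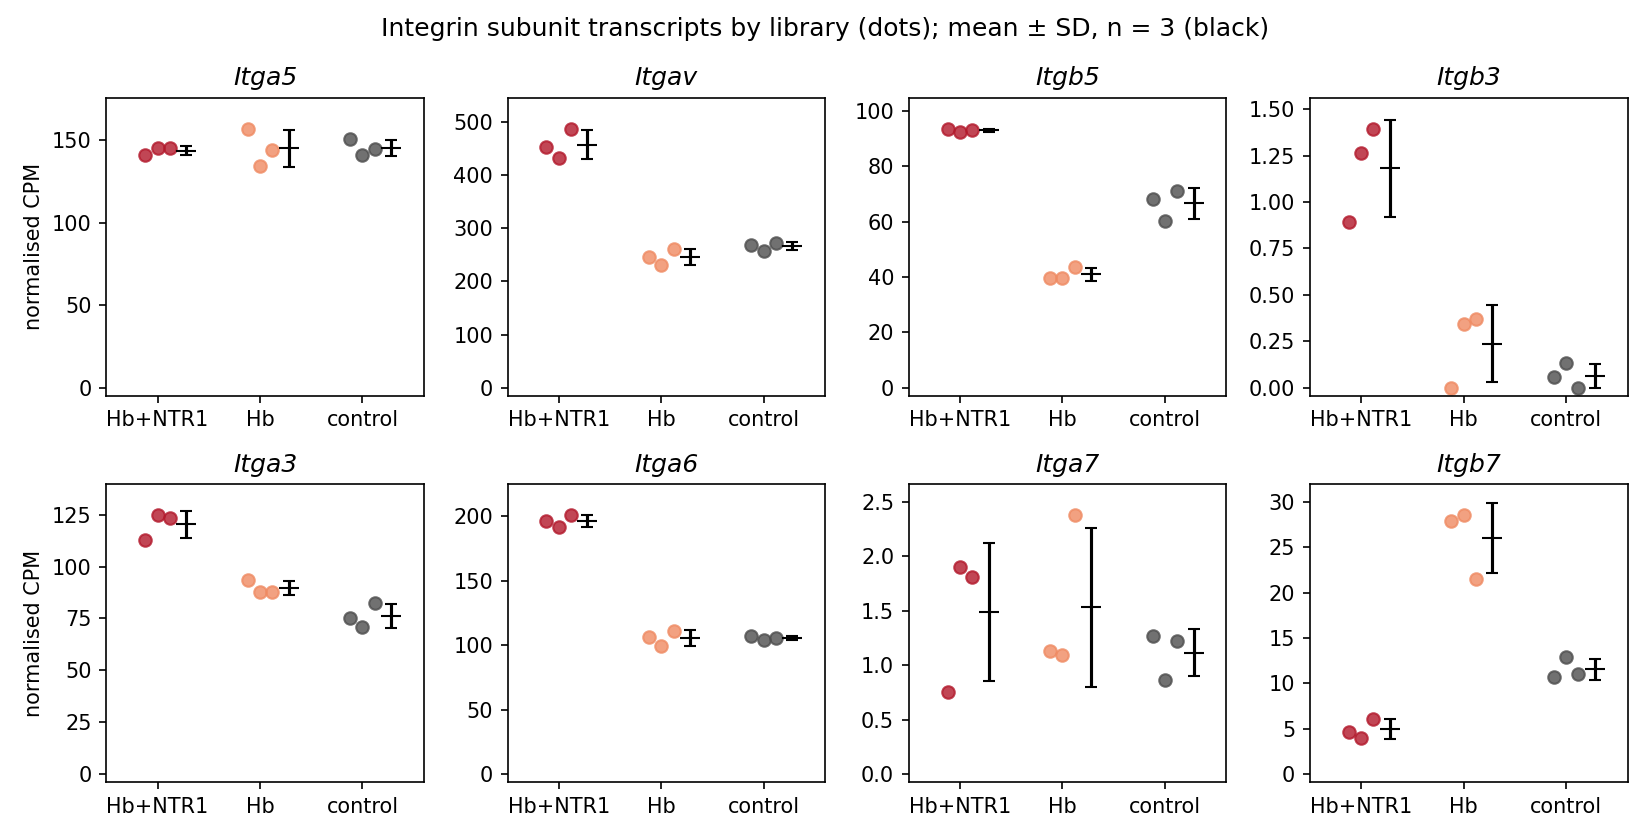
Normalised CPM (vertical axes, from 0) of the 8 tested integrin subunits in the libraries of the Hb+NTR1, Hb and control groups; dots are libraries and the black marks are mean ± SD (n = 3). Itgb7 is highest and Itgb5 lowest in Hb, whereas Itgav and Itga6 stand apart in Hb+NTR1 and Itga5 overlaps in all groups.

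Itgb7 and Itgb5 were the pair called in both steps, so their start regions are shown. These are the 300 bases around the RefSeq start site of each gene on GRCm38.p6, 250 before it and 50 after it, in the direction of transcription, with matches to 4 short motifs in capitals.
Itgb7, chr15:102231886-102232185, minus strand: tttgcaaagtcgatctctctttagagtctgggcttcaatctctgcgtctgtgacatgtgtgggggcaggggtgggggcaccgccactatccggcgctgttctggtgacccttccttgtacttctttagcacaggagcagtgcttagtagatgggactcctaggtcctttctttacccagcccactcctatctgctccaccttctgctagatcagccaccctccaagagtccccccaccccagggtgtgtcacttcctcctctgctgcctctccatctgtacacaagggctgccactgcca
Itgb5, chr16:33829415-33829714, plus strand: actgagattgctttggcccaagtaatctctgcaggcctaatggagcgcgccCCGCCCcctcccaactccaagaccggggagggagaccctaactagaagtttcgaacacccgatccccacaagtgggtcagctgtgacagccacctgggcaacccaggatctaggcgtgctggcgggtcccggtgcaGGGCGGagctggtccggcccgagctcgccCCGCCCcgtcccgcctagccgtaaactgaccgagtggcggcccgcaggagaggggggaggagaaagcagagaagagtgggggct
Itgb5 had 3 matches to the GC box GGGCGG, counted on both strands, which 35.7% of 32851 RefSeq windows of this length hold. The Itgb7 window had no match to it, nor to the antioxidant response element core TGACNNNGC, the AP-1 site TGANTCA or the TATA box TATAAA, which 12.4%, 7.81% and 13.6% of windows hold. Of the 10 subunits, 7 had a window in the RefSeq table, and the GC box was in 5 of them, those of Itga3, Itga4, Itga5, Itgav and Itgb5. A subunit counted if any of its windows held the box, whereas the percentages are shares of single windows with at least 1 match. Itga6, Itga7 and Itgb3 had no entry. A match is a stretch of letters and not a shown binding site.

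Itgb7 encodes the beta7 subunit, known from lymphocytes, where it pairs with alpha4 to bind MAdCAM1 and VCAM1 or with alphaE to bind E-cadherin. The gene lies at chr15:102215995-102231944 on the minus strand, and no other annotated gene overlapped it. In Hb its libraries held 27.9, 28.5 and 21.5 CPM, against 10.7, 12.9 and 11.03 CPM in control. Every Hb library lay above every control library, a 2.26-fold rise (log2 fold change 1.17 ± 0.14, edgeR adjusted p = 4.86e-06). With NTR1 the level was 4.66, 4.004 and 6.13 CPM, below all libraries of both other groups. Against Hb this was 5.26-fold lower (log2 fold change -2.40 ± 0.15, edgeR adjusted p = 2.71e-12), and against control 2.33-fold lower (log2 fold change -1.22 ± 0.16, edgeR adjusted p = 6.62e-07).

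The alpha partners of beta7 were sparse. Itga4, at chr2:79255426-79333123, had 1 count in 1 Hb+NTR1 library, 1 count in 1 Hb library and 0 in control, all at or under the floor of 3 counts, which is 0.181 to 0.223 CPM depending on the library and covers counting error only. Some of its exon bases (8.04%) overlap Cerkl on the opposite strand, and the strand setting of the counting is not known. Itgae, the alphaE subunit, is not among the 10 genes and was looked up after its values had been seen: it had 1.60 ± 0.19 CPM in Hb+NTR1, 3.71 ± 0.71 CPM in Hb and 3.14 ± 0.71 CPM in control. Itgae was lower in Hb+NTR1 than in Hb (log2 fold change -1.21 ± 0.27, edgeR adjusted p = 0.000417) and missed the threshold in Hb against control (edgeR adjusted p = 0.685). Lymphocyte and leukocyte markers were near absent, with 11 of 13 under 1 CPM in each group, Cd3e at 0 in all libraries and Ptprc at 7, 5 and 7 counts in all Hb+NTR1, all Hb and all control libraries. Their summed level was 6.58 to 7.02 CPM in Hb+NTR1, 6.83 to 8.19 CPM in Hb and 6.18 to 6.80 CPM in control. Itgae is on that marker list, and so is Itgb2, the leukocyte beta2 subunit, with 4.01, 2.602 and 1.94 CPM in Hb+NTR1, Hb and control.

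Ligands of the alpha4, alpha9 and beta7 pairs formed a list of 12 symbols, 11 of them in the table and 6 tested. Tnc is also on the list of fibronectin and other integrin ligands below, and the counts hold for this list as drawn. Between Hb and control 1 was called higher and 1 lower, at a median log2 fold change of -0.22 beside 0 over all genes tested. Of all tested genes 1.88% were called higher and 1.77% lower. Cdh1, which encodes E-cadherin, averaged 20.8 ± 2.08 CPM in Hb and 15.1 ± 1.73 CPM in control (edgeR adjusted p = 0.0265). That call ended without control replicate 1, 2 or 3 or Hb replicate 1 or 3 (edgeR adjusted p = 0.170, 0.0545, 0.0550, 0.131 and 0.0613). In Hb+NTR1 against Hb, 5 of the 6 were lower and none higher, at a median of -1.88 beside -0.011 over all genes tested. The shares of all tested genes were 31.6% lower and 30.7% higher. Cdh1 was at 1.97 ± 0.16 CPM with NTR1, 10.5-fold lower than in Hb (edgeR adjusted p = 1.37e-14). Vcam1, the endothelial and stromal ligand of alpha4 and alpha9, averaged 31.4 ± 0.33 CPM in Hb+NTR1 and 124 ± 8.51 CPM in Hb (edgeR adjusted p = 1.22e-16). Vegfd, a lymphatic growth factor that alpha9 can bind, was 5.12-fold lower (edgeR adjusted p = 3.32e-18). Against control 5 of the 6 were again lower, at a median of -2.15 beside -0.0042, where 32.2% of all tested genes were lower. From the same counts, the authors' deposited table gives Vcam1 a log2 fold change of -2.14. Madcam1 had 4, 2 and 3 counts in all Hb+NTR1, Hb and control libraries together and was not tested. The alpha9 gene itself, Itga9 at chr9:118606690-118901003, was at 0 counts in all 9 libraries, which allows up to 0.223 CPM in the shallowest.

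By a pattern measure over the 9 libraries, the genes closest to Itgb7 among 10297 with a mean of at least 5 CPM were Amigo2, Sema5a, Ppp1r14b, Msln and Gprc5b. The measure was the root mean square difference of centred log2 CPM, and it was 0.345 to 0.360 for these 5 genes. Amigo2 averaged 10.2, 32.9 and 22.0 CPM in Hb+NTR1, Hb and control, and Sema5a 26.15, 87.8 and 51.3 CPM. Their shared group order follows from that choice and is no separate result.

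Itgb5 encodes beta5, which pairs with alphav to bind vitronectin and other ligands with the arginine-glycine-aspartate sequence. It lies at chr16:33829665-33949338 with no overlapping gene. Hb libraries held 39.6, 39.7 and 43.6 CPM, and control libraries 68.3, 60.4 and 71.1 CPM. The groups did not overlap, and Itgb5 was 1.63-fold lower in Hb (log2 fold change -0.70 ± 0.077, edgeR adjusted p = 2.68e-06). With NTR1 it held 93.4, 92.4 and 92.9 CPM, the narrowest spread of the 3 groups. It was 2.27-fold higher than in Hb (log2 fold change 1.18 ± 0.077, edgeR adjusted p = 3.47e-12) and 1.395-fold higher than in control (log2 fold change 0.48 ± 0.074, edgeR adjusted p = 4.74e-06). The comparisons of a group with 2 others share its libraries, so that their values are set side by side and not counted as separate evidence.

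Itgav encodes alphav, the shared partner of beta3, beta5, beta6, beta8 and beta1. At chr2:83724397-83806916, 5.90% of its exon bases overlap Gm13684 on the opposite strand. It held 453, 431 and 486 CPM in Hb+NTR1, against 245, 230.04 and 261 CPM in Hb and 268, 257 and 272 CPM in control. The libraries with NTR1 were above all others. The rise was 1.86-fold over Hb (log2 fold change 0.90 ± 0.065, edgeR adjusted p = 2.62e-11) and 1.72-fold over control (log2 fold change 0.78 ± 0.065, edgeR adjusted p = 2.55e-10). Hb and control libraries overlapped (log2 fold change -0.11 ± 0.065, edgeR adjusted p = 0.407).

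Itgb3 encodes beta3, which joins alphav in adherent cells and alphaIIb in platelets. It lies at chr11:104608000-104670476. The counts themselves were 13, 18 and 20 in Hb+NTR1, 0, 5 and 5 in Hb, and 1, 2 and 0 in control. It passed the filter through its Hb+NTR1 libraries, so a call in the NTR1 comparisons could only be upwards. The ratio of summed counts, scaled to library size, was 4.99 over Hb (95% exact interval 2.51 to 11.03) and 17.95 over control (5.81 to 89.9), for counting error only. The fit gave log2 fold changes of 2.28 ± 0.60 over Hb (edgeR adjusted p = 0.00195) and 4.002 ± 0.74 over control (edgeR adjusted p = 5.63e-05), the second of which depends on the small control counts. In the authors' deposited table Itgb3 is the 1 gene of the 10, with a log2 fold change of 4.17 and an adjusted p of 0.000207 for Hb+NTR1 against control. Every gene in that table has an absolute log2 fold change of at least 2.0046, which no other tested subunit reached here in that comparison. The table holds the same counts, so its values are no separate result. Between Hb and control the ratio was 3.60 (0.926 to 20.3) and not called (edgeR adjusted p = 0.420).

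Itgb8, a beta partner of alphav outside the 10 genes, averaged 2.87 ± 0.35 CPM in Hb+NTR1, 8.77 ± 0.86 CPM in Hb and 5.71 ± 0.70 CPM in control. It was lower with NTR1 than in Hb (log2 fold change -1.61 ± 0.18, edgeR adjusted p = 5.41e-08). It was higher in Hb than in control (edgeR adjusted p = 0.0321), a call that ended without control replicate 1 or 2 or Hb replicate 2 or 3 (edgeR adjusted p = 0.138, 0.139, 0.0651 and 0.0707).

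**Figure D2:**
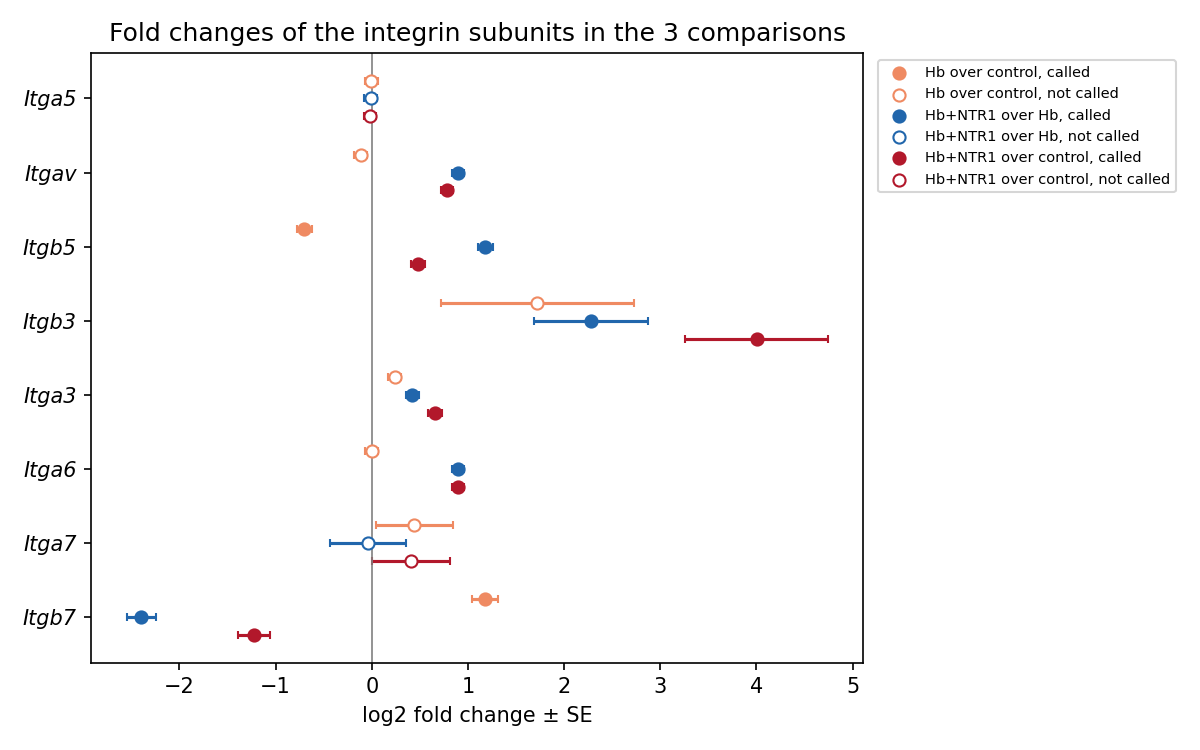
Log2 fold change ± SE (horizontal axis) of the 8 tested subunits in Hb over control, Hb+NTR1 over Hb and Hb+NTR1 over control; filled points were called at an edgeR adjusted p under 0.05. Itgb7 runs from -2.40 to 1.17, Itgb5 from -0.70 to 1.18, and the 3 points of Itga5 lie within 0.018 of 0.

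Itga5 encodes alpha5, which with beta1 forms the classical fibronectin receptor. At chr15:103344286-103366763, it held 141, 145 and 145 CPM in Hb+NTR1, 157, 134 and 144 CPM in Hb, and 151, 141 and 145 CPM in control. All groups overlapped. The log2 fold change was -0.013 ± 0.065 in Hb+NTR1 against Hb, -0.018 ± 0.065 in Hb+NTR1 against control and -0.0054 ± 0.065 in Hb against control, with edgeR adjusted p = 0.880, 0.823 and 0.983. These values rest on 1943 to 2503 counts per library.

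Fn1, which encodes the alpha5 ligand fibronectin, averaged 405 ± 9.33 CPM in Hb+NTR1, 2006 ± 420 CPM in Hb and 2555 ± 167 CPM in control. It was 4.95-fold lower with NTR1 than in Hb (log2 fold change -2.31 ± 0.12, edgeR adjusted p = 5.78e-11). In Hb against control it was not called (log2 fold change -0.35 ± 0.11, edgeR adjusted p = 0.112), whereas without Hb replicate 2 it passed at a smaller change (-0.19, edgeR adjusted p = 0.0341), and without the filter on low counts it passed at a like change (-0.36, edgeR adjusted p = 4.76e-05). The list of fibronectin and other integrin ligands was drawn up around the arginine-glycine-aspartate sequence but was not limited to its carriers. It had 14 of 20 members tested. Hb against control gave 7 that fell and none that rose, at a median log2 fold change of -0.41 beside 0 over all genes tested. Of all tested genes 1.77% fell and 1.88% rose. When tested against a 1.2-fold change, 4 of the list passed, all lower. Thbs1, the matricellular protein thrombospondin 1, was at 73.5 ± 3.31 CPM in Hb and 239 ± 47.0 CPM in control (edgeR adjusted p = 3.73e-08). Postn, Ctgf and Tnc, which encode periostin, connective tissue growth factor and tenascin C, fell 1.97-fold, 1.57-fold and 1.49-fold.

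With NTR1 the same list split. Against Hb 6 rose and 6 fell of 14, at a median of 0.16 beside -0.011 over all genes tested, and against control 6 rose and 7 fell, at a median of -0.36 beside -0.0042. Among all tested genes 30.7% rose and 31.6% fell against Hb, and 31.4% and 32.2% against control. Cyr61, a matricellular ligand of alphav and alpha6 pairs, averaged 796 ± 44.7 CPM in Hb+NTR1 and 251 ± 38.9 CPM in Hb (edgeR adjusted p = 1.83e-13). Postn and Tnc were 5.15-fold and 3.46-fold lower than in Hb. Emilin1, an elastic fibre glycoprotein, was 3.04-fold lower than in control (edgeR adjusted p = 5.63e-14). Of the fibroblast markers, which share Postn and Fbn1 with this list, 10 of 10 tested were lower with NTR1 against either group. S100a4, at 34, 108 and 209 counts in all Hb+NTR1, Hb and control libraries, is among them. It passed the filter only through its Hb and control libraries and could only be called lower. Over all tested genes 31.6% were lower against Hb and 32.2% against control. Cyr61 and Ctgf were instead higher with NTR1 than in Hb (log2 fold change 1.66 and 1.64). The part of the fibroblast, glial and neuronal markers in the levels of the integrin genes was not tested.

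Itga6 encodes alpha6, a laminin receptor subunit that pairs with beta1 or beta4. It lies at chr2:71745616-71858416, and the genes annotated within it share none of its exon bases. It held 196, 192 and 201 CPM in Hb+NTR1, against 106, 99.0 and 111 CPM in Hb and 107, 104 and 105 CPM in control. The libraries with NTR1 stood apart, while Hb and control overlapped. The rise was 1.86-fold over Hb (log2 fold change 0.90 ± 0.063, edgeR adjusted p = 1.37e-11) and 1.86-fold over control (log2 fold change 0.89 ± 0.063, edgeR adjusted p = 1.22e-11). The log2 fold change in Hb against control was -0.0022 ± 0.064 (edgeR adjusted p = 0.992).

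Itga3, at chr11:95044474-95076801, encodes alpha3, which with beta1 reads mainly laminins with the alpha5 or alpha3 chain. Its libraries held 113, 125 and 123 CPM in Hb+NTR1, 93.7, 87.8 and 87.8 CPM in Hb, and 75.1, 71.1 and 82.3 CPM in control. No groups overlapped. It was 1.34-fold higher with NTR1 than in Hb (log2 fold change 0.42 ± 0.070, edgeR adjusted p = 1.38e-05) and 1.58-fold higher than in control (log2 fold change 0.66 ± 0.071, edgeR adjusted p = 1.85e-08). Hb against control missed the threshold for Itga3 (log2 fold change 0.24 ± 0.071, edgeR adjusted p = 0.0674). Without Hb replicate 2 it passed (log2 fold change 0.25, edgeR adjusted p = 0.0193), as it did when libraries were scaled by totals alone (0.28, edgeR adjusted p = 0.0247).

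Itga7, at chr10:128933818-128958282, encodes alpha7, the laminin receptor subunit of skeletal muscle. It had 0.754, 1.90 and 1.81 CPM in Hb+NTR1, 1.13, 1.09 and 2.37 CPM in Hb, and 1.26, 0.864 and 1.22 CPM in control. The libraries of the 3 groups overlapped on 11 to 32 counts each. The ratio of summed counts was 0.979 in Hb+NTR1 over Hb (95% exact interval 0.681 to 1.41), 1.33 in Hb+NTR1 over control (0.903 to 1.95) and 1.35 in Hb over control (0.923 to 1.996). These intervals cover counting error only, and the fitted log2 fold changes carried a wider SE of 0.39 to 0.40. None was called (edgeR adjusted p = 0.943, 0.390 and 0.639).

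Of 14 laminin and basement membrane genes, 9 were tested. The laminin alpha chains on the list were sparse. The highest group means of Lama1, Lama2, Lama4 and Lama5 were 0.116, 0.805, 0.0803 and 0.429 CPM. Lama3 was not on the list, so the beta and gamma chains below do not measure the supply of whole laminins. In Hb against control Lamb1, the laminin beta1 chain, was the 1 call, at 113 ± 2.94 CPM in Hb and 140.4 ± 5.66 CPM in control (edgeR adjusted p = 0.00364), and the median log2 fold change was -0.050 beside 0. Of all tested genes 3.65% were called. A further gene of the list was called higher under other settings, and which one differed. Nid1, a basement membrane linker, passed without Hb replicate 2 (log2 fold change 0.29, edgeR adjusted p = 0.000525) and with library totals. Lamc3, the laminin gamma3 chain, which the filter had left out at 44 counts in all Hb and 5 in all control libraries, passed without control replicate 1, 2 or 3, without Hb replicate 3 and with no filter (edgeR adjusted p = 0.0443, 0.0274, 0.0127, 0.00703 and 0.00285). In Hb+NTR1 against Hb 3 rose and 5 fell, at a median of -0.36 beside -0.011, with 30.7% and 31.6% over all tested genes. Lamb1 was 1.36-fold higher (edgeR adjusted p = 1.64e-06). Hspg2, Lamb2 and Agrn, which encode perlecan, the laminin beta2 chain and agrin, were 3.10-fold, 2.33-fold and 1.92-fold lower. Against control 2 rose and 3 fell, at a median of -0.10 beside -0.0042, with 31.4% and 32.2% over all tested genes. Among those 2, Lamc1, the laminin gamma1 chain, averaged 574 ± 17.2 CPM in Hb+NTR1 and 508 ± 1.59 CPM in control (edgeR adjusted p = 0.0457), and it missed the threshold with any 1 of the 6 libraries left out (edgeR adjusted p = 0.0595 to 0.140) and without the filter on low counts (edgeR adjusted p = 0.0501). Neither of the 2 rises passed, leaving 3 falls, without Hb+NTR1 library N2 or N3, without control replicate 1 or 2, and without the filter.

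Itgb1, the beta1 subunit that completes alpha3, alpha5, alpha6 and alpha7 receptors and is not among the 10 genes, averaged 1313 ± 69.4 CPM in Hb+NTR1, 818 ± 44.4 CPM in Hb and 896 ± 32.2 CPM in control. It rose with NTR1 over Hb (log2 fold change 0.68 ± 0.065, edgeR adjusted p = 2.78e-09) and over control (0.55 ± 0.065, edgeR adjusted p = 8.11e-08). Hb against control gave no call (-0.13 ± 0.064, edgeR adjusted p = 0.318). Itgb4, which pairs with alpha6 in hemidesmosomes, was instead 7.06-fold lower with NTR1 than in Hb, at 1.62 ± 0.54 CPM in Hb+NTR1 and 11.5 ± 1.78 CPM in Hb (edgeR adjusted p = 3.70e-11). Itga11, the collagen receptor subunit of the series title, had 13, 58 and 75 counts in all Hb+NTR1, Hb and control libraries, and was lower with NTR1 against Hb and against control (edgeR adjusted p = 0.000389 and 7.78e-05). Itga11 passed the filter only through its Hb and control libraries, so a call with NTR1 could only be downwards. Over the 9 tested of 16 other subunits, 1 rose and none fell in Hb against control. In Hb+NTR1 against Hb 2 rose and 4 fell, and against control 3 rose and 5 fell. Of all tested genes 1.88% rose and 1.77% fell in Hb against control. With NTR1 30.7% rose and 31.6% fell against Hb, and 31.4% and 32.2% against control. The medians in these 3 comparisons were 0.077, -1.12 and -0.97, beside 0, -0.011 and -0.0042 over all genes tested. The median of -1.12 was the value of Itgal, which was not called over Hb (edgeR adjusted p = 0.0852). Itgal had 12, 26 and 31 counts in all Hb+NTR1, Hb and control libraries. Like Itga11, it passed the filter only through its Hb and control libraries, so a call with NTR1 could only be downwards. For the 8 tested of the 10 subunits described here, Hb against control gave 1 higher and 1 lower. Either NTR1 comparison gave 5 higher and 1 lower. Their medians were 0.12, 0.66 and 0.57, which include Itgb3 and leave out the untested Itga4 and Itga9.

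To set the genes against each other, levels were divided by the length of their merged exons, giving CPM per kb. In Hb+NTR1 the order was Itgav (42.5 ± 2.58), Itga5 (29.1 ± 0.52), Itgb5 (26.2 ± 0.15), Itga6 (21.7 ± 0.49), Itga3 (21.1 ± 1.11), Itgb7 (1.78 ± 0.39), Itgb3 (0.200 ± 0.044) and Itga7 (0.184 ± 0.079) CPM per kb. Neighbours overlapped for Itga6 and Itga3 and for Itgb3 and Itga7. In Hb it was Itga5 (29.4 ± 2.29), Itgav (22.9 ± 1.44), Itga3 (15.7 ± 0.60), Itga6 (11.7 ± 0.67), Itgb5 (11.5 ± 0.65), Itgb7 (9.38 ± 1.397), Itga7 (0.189 ± 0.090) and Itgb3 (0.0403 ± 0.035) CPM per kb, with overlap of Itga6 and Itgb5. In control it was Itga5 (29.5 ± 0.98), Itgav (24.7 ± 0.72), Itgb5 (18.7 ± 1.57), Itga3 (13.3 ± 0.99), Itga6 (11.7 ± 0.19), Itgb7 (4.16 ± 0.43), Itga7 (0.138 ± 0.027) and Itgb3 (0.0109 ± 0.011) CPM per kb, with no overlap of neighbours. Itgav thus stood first in Hb+NTR1, and Itga5 first in Hb and in control. Among beta subunits, Itgb1 was at 322 ± 17.01, 200.5 ± 10.9 and 220 ± 7.90 CPM per kb in Hb+NTR1, Hb and control, above every one of these genes.

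**Figure D3:**
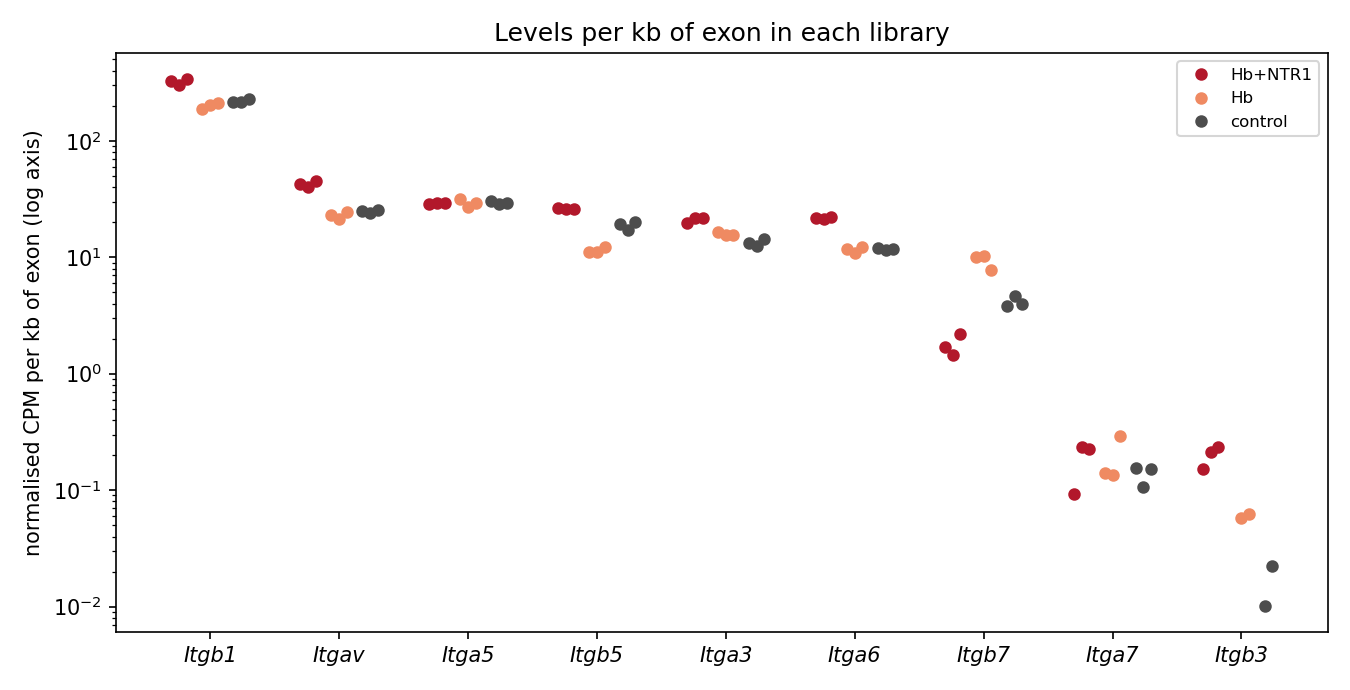
Normalised CPM per kb of merged exon (log axis) in each library for Itgb1 and the 8 tested subunits, by group; libraries with 0 counts, 1 each of Hb and control for Itgb3, are not drawn. Itgb5 and Itgb7 lie next to each other in Hb, at 11.5 and 9.38 CPM per kb, and far apart in Hb+NTR1, at 26.2 and 1.78 CPM per kb.

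Of 37 adaptor and signalling genes, 32 were tested, and in Hb against control 1 rose and 1 fell at a median log2 fold change of -0.041 beside 0: Tns2, a tensin of adhesion sites, at 225 and 181 CPM (edgeR adjusted p = 0.00684), and Apbb1ip, a talin recruiter, at 27.8 and 36.2 CPM (edgeR adjusted p = 0.0131) in Hb and control. The call of Apbb1ip ended without control replicate 1 or 3 (edgeR adjusted p = 0.0611 and 0.0783). Without Hb replicate 2 the list had 4 calls, 2 higher and 2 lower, with Tns3 and Fermt2, which encode tensin 3 and kindlin-2, added (log2 fold change 0.31 and -0.19, edgeR adjusted p = 0.000861 and 0.0475). With NTR1 against Hb 8 rose and 11 fell, at a median of 0.037 beside -0.011, and against control 10 rose and 14 fell, at a median of -0.13 beside -0.0042. Among all tested genes 30.7% rose and 31.6% fell against Hb, and 31.4% and 32.2% against control. The shares in Hb against control were 1.88% and 1.77%. The falls against Hb were greatest in Tgfb1i1, Tns1 and Zyx, which encode the adhesion proteins Hic-5, tensin 1 and zyxin, at 5.58-fold, 2.67-fold and 2.50-fold. Parvb, a parvin that binds integrin-linked kinase, was 2.09-fold higher (edgeR adjusted p = 1.02e-11).

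Membrane partners and trafficking genes of integrins, 16 in all and all tested, had 1 higher and 1 lower in Hb against control, at a median log2 fold change of -0.016 beside 0. Without Hb replicate 2 there were 4 calls, 1 higher and 3 lower, with Lgals1 and Cd44, which encode galectin 1 and a hyaluronan receptor, added (log2 fold change -0.38 and -0.20, edgeR adjusted p = 0.000307 and 0.0460). Sdc4, the syndecan that works with alpha5 and beta1 on fibronectin, fell, at 42.9 ± 2.22 CPM in Hb and 62.4 ± 4.55 CPM in control (edgeR adjusted p = 9.72e-05). Like Itgb5, it was higher with NTR1 than in Hb, at 102 ± 5.89 CPM (log2 fold change 1.24 ± 0.077, edgeR adjusted p = 1.43e-12). Lgals3, the carbohydrate-binding galectin 3, rose 1.201-fold in Hb (edgeR adjusted p = 0.0324). That call ended without control replicate 1 or 2 (edgeR adjusted p = 0.214 and 0.170) and in a fit of the 6 compared libraries alone (edgeR adjusted p = 0.0602). In Hb+NTR1 against Hb 8 rose and 8 fell, at a median of -0.0078 beside -0.011. Plaur, the urokinase receptor, was 2.36-fold higher, and Snx17, a sorting nexin that recycles beta subunits, was 2.80-fold lower (edgeR adjusted p = 6.60e-10 and 2.57e-13). Sdc1 was 2.81-fold lower. Against control 8 rose and 7 fell, at a median of 0.042 beside -0.0042, with Basp1 2.14-fold lower. The shares of all tested genes that rose and fell were 30.7% and 31.6% over Hb and 31.4% and 32.2% over control. They were 1.88% and 1.77% in Hb against control.

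**Figure D4:**
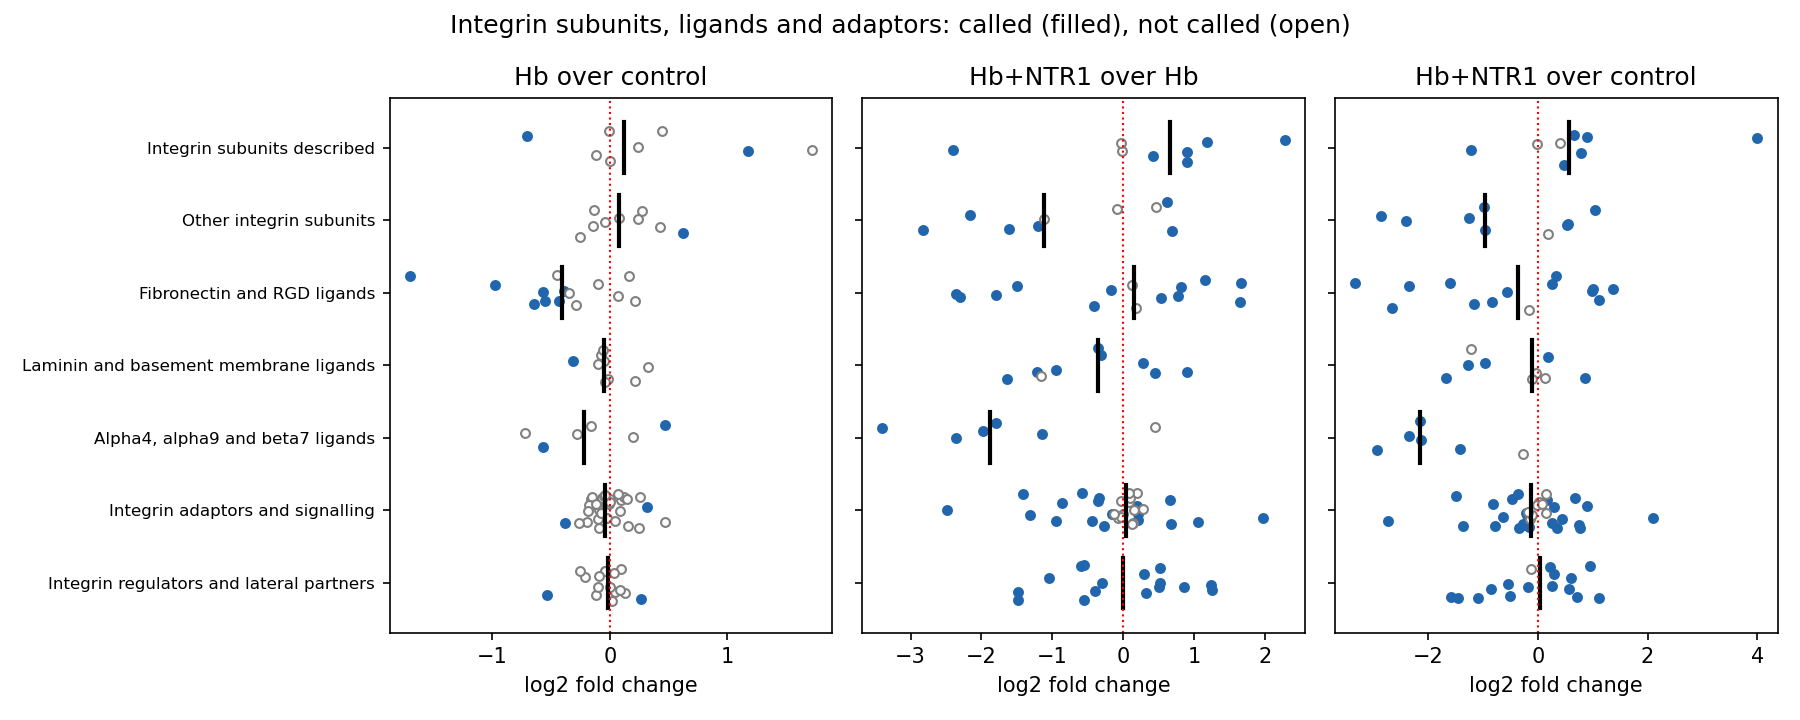
Log2 fold change (horizontal axes) of every tested gene of 7 lists in the 3 comparisons; filled points were called at an edgeR adjusted p under 0.05, black bars are list medians and the red dotted line is the median of all tested genes. The list of alpha4, alpha9 and beta7 ligands has its median left of the dotted line with NTR1, at -1.88 over Hb and -2.15 over control.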

How the data were processed

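The count table deposited by the authors holds raw counts per gene symbol. Per the submitters' processing notes, the tools were HTSeq 0.10.0, HISAT2 2.1.0 and bcl2fastq 2.19.1.403, on genome build GRCm38; the sources used here give no annotation release or strand setting. Of 54232 rows, 98 exact repeats were removed. The samples taken as Hb+NTR1 carry the treatment labels ganyu1, ganyu2 and ganyu3. Columns beginning with N were taken as this group, since a deposited comparison named ganyu against control lists N and C columns alone. That table, of 691 genes, holds log2 fold changes and p-values that the authors computed with a test the sources used here do not name. Its counts equal those used here for 691 genes, and its smallest absolute log2 fold change is 2.0046.

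Counts were fitted in R 4.3.3 with edgeR 4.0.16: filterByExpr (minimum count 10), TMM factors and 1 quasi-likelihood fit over 9 libraries. Alternatives included DESeq2 1.42.0. The fit was also run on simulated counts with changes in the Hb group alone, a run that does not cover the NTR1 comparisons. Positions and exon lengths came from GENCODE M21 (GRCm38), promoters from RefSeq. The genes and lists were chosen with earlier results of these data known. Beside the 10 subunits, named genes were up to 4 called per list and comparison with at least 5 CPM and no overlap, and Itgb1, Vcam1, Madcam1, Fn1 and Itga11. Outside this rule, Itgae, Itgb2, Itgal, the laminin alpha chains and single cell type markers were chosen after their values were seen. So were the genes named for a call under another setting (Nid1, Lamc3, Tns3, Fermt2, Lgals1, Cd44).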

Additional observations from a re-analysis of the deposited data

How the results depend on the processing

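Under every alternative run, Itgb7 and Itgb5 kept their direction and their call in all 3 comparisons. The number of called subunits was 2 in Hb against control, and 2 to 3 with 1 library left out. With library totals Itga3 was called there beside Itgb7 and Itgb5. In both NTR1 comparisons the number was 6 with any 1 library left out. It was 5 when at least 1 CPM in 3 libraries was asked for, which drops Itgb3. All genes called in Hb against control numbered 504, but 285 to 1125 with 1 library left out (highest without Hb replicate 2) and 97 against a 1.2-fold change. Scaling by library totals changed the split there from 259 higher and 245 lower to 377 and 196. The same scaling shifted log2 fold changes by a median of 0.039 in Hb against control and 0.025 in Hb+NTR1 against Hb. In Hb+NTR1 against control the median shift was 0.063. Small, uncalled values changed sign with library totals and with 1 library left out, and the cause of the latter was not tested. With library totals Itga5 had log2 fold changes of 0.034 in Hb against control, 0.011 in Hb+NTR1 against Hb and 0.045 in Hb+NTR1 against control, and Itga6 had 0.037 in Hb against control. With 1 library left out, Itga5 ranged from -0.065 to 0.047, from -0.068 to 0.042 and from -0.041 to 0.0046 in the same order, Itga6 from -0.041 to 0.040 in Hb against control, and Itga7 from -0.0068 to 0.64 in Hb against control and from -0.25 to 0.41 in Hb+NTR1 against Hb.

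With the replicate number as a block, 2 subunits and 534 genes were called in Hb against control, beside 371 genes in the same 6 libraries without it; Fn1 passed with the block (log2 fold change -0.37, edgeR adjusted p = 0.00668). Same-numbered libraries did not deviate together (correlations 0.095, -0.023 and -0.049), so the numbers were not taken to pair them. No paired analysis was possible for Hb+NTR1 because its columns carry no label of a sample. Depth limited Itgb3, Itga7, Itga4 and Itga9.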
